A study of Mus musculus with 60 samples.

Results

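The later, larger EU-seq set on RAD21-AID mouse embryonic stem cells (mESCs) held 12 control libraries and 12 libraries made after 4 h in 500 µM indole-3-acetic acid (IAA), 24 of the 60 libraries of the series. Its members were taken by their labels alone: E14 mESCs of genotype GFP-AID-Rad21, in which RAD21 carries GFP and an auxin-inducible degron (AID), with or without IAA. Both groups carry the degron allele and grew in N2B27 medium with 1000 units/ml LIF, 1 µM of the MEK inhibitor PD0325901 and 3 µM of the GSK3 inhibitor CT-99021, and 0.5 mM 5-ethynyl uridine (EU) was added for the last 20 min. The control libraries carry no IAA label, and the labels do not say whether the 12 libraries of a group came from separate cultures, so every p value measures only the spread between these libraries. Without IAA-treated cells that lack the degron in the set, an effect of IAA itself and an effect of RAD21 loss cannot be told apart. For comparison, 2 control and 2 IAA libraries of an initial RAD21-AID experiment (same dose and time) were used. CTCF-AID mESCs after 6 h at the same dose gave 4 and 4 libraries, 2 and 2 of them stranded. RAD21-AID neuronal progenitor cells (NPCs) after 4 h at the same dose gave 2 and 2. None of these libraries is shared with the 24. The NPCs grew in N2B27 with the growth factors FGF2 and EGF, and no LIF or inhibitor is named for them. Cell type and medium therefore cannot be told apart in that comparison.

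RAD21 is the kleisin subunit that closes the cohesin ring. Cohesin loaded by NIPBL extrudes chromatin loops until it meets CTCF or is released by WAPL, and such loops bring enhancers and promoters into contact. In the AID system IAA recruits a ubiquitin ligase to the tagged protein, so the protein is lost while its gene is still transcribed, and EU marks only RNA made during the pulse, so EU-seq reports transcription ahead of changes in stable mRNA.

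Total counts per library ran from 6966470 to 19725013 in controls and from 8051829 to 20879216 after IAA, and log counts of libraries of one group correlated at 0.990 to 0.996 over 132 pairs. The first principal component held 48.1% of the variance and separated all 12 control from all 12 IAA libraries. The second held 7.78% and set replicate 1 of both groups, labelled CC52, apart from the others, labelled CC53. What these labels mark is not given in the sources used here. Rad21 itself, the targeted gene, gave 260 to 279 CPM (counts scaled to a common library total) in controls (median 268) and 245 to 277 after IAA (median 266.67), a log2 change of -0.01 (SE 0.018, adjusted p = 0.796). Because the degron acts on protein, this level does not check the loss of RAD21. The summed level of 6 markers of mESCs (Pou5f1, Sox2, Nanog, Klf4, Esrrb, Zfp42) was 3098 to 3281 CPM in controls and 2638 to 2757 CPM after IAA, and none of the 6 was without counts.

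With 12 libraries against 12, transcription of most measurable genes shifted, and nearly all shifts were small. Of 15732 genes with a mean count above 20 in either group, 4043 (25.7%) were lower and 5196 (33%) were higher after IAA at an adjusted p under 0.05 (edgeR quasi-likelihood F test, two-sided, Benjamini-Hochberg over all genes). The median size among these was 1.15-fold and the smallest was 1.03-fold, and 1643 of the lower and 1391 of the higher genes moved by less than 1.1-fold. At 1.3-fold or more, 762 genes (4.84%) were lower and 1171 (7.44%) were higher. At 2-fold or more, 92 (0.585%) were lower and 41 (0.261%) were higher. A gene in these counts is a counted transcript. The 15732 carry 15004 symbols, and 1379 of them share a symbol with another tested transcript. With 1 transcript per symbol, 718 were lower and 1143 higher at 1.3-fold or more. Changes are centred on the median of 9212 expressed genes, those above 15 TPM (transcripts scaled by counted length to a fixed library total), so a change here is relative to the bulk of expressed genes and a shift common to all of them would not be seen. In bulk libraries, fewer cells of a type and less RNA per cell cannot be told apart.

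**Figure D1:**
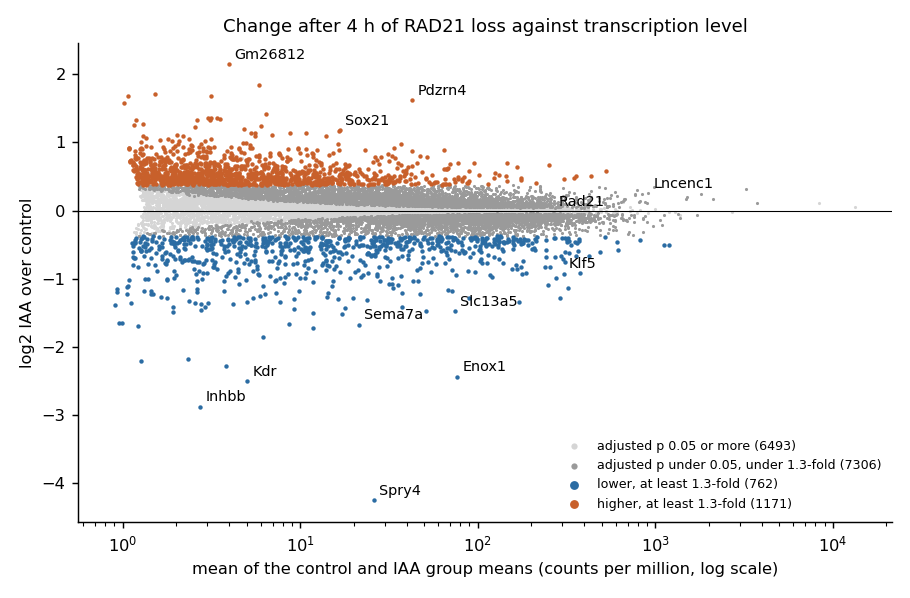
Log2 change after IAA (vertical axis) against the mean of both group means in CPM (horizontal axis, log scale) for the 15732 genes tested, coloured by call, with the number of genes in each class in the key. Spry4 lies lowest at -4.25, Rad21 lies at -0.01, and increases of 1.3-fold or more gather at low levels.

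Decreases and increases differed in the level of the genes they touched. Among genes below 5 TPM, 8.22% were lower and 21.2% were higher at 1.3-fold or more, whereas among genes above 150 TPM 3.96% were lower and 0.209% were higher. Accordingly, 287 of the 762 lower genes but 164 of the 1171 higher genes were expressed above 15 TPM, and at 2-fold these numbers were 28 of 92 and 3 of 41. Long intergenic noncoding RNA (lincRNA) genes made up 270 of the 1171 higher genes and 48 of the 762 lower genes, against 977 of all 15732 tested. The standard error of a log2 change was 0.089 (median) below 5 TPM and 0.024 above 150 TPM. Weakly transcribed genes also shifted as a whole. The median log2 change was 0.15 below 5 TPM, 0.06 at 5 to 15 TPM, 0.01 at 15 to 50 TPM and -0.01 above 150 TPM. Centring on genes above 15 TPM leaves this shift in, so calls among weak genes include it. What made weak genes shift was not tested. Of the genes called under 1.1-fold, 1448 of 1643 lower and 1146 of 1391 higher ones were expressed. The CPM of the groups did not overlap at all for 1143 genes that were lower (7.27%) and 846 that were higher (5.38%).

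The largest decrease was that of Spry4, a Sprouty inhibitor of receptor tyrosine kinase signaling to ERK (chr18:38586247-38601415, GRCm38), which had 43.3 to 54.4 CPM in controls (median 49.7) and 1.95 to 3.14 after IAA (median 2.61), a log2 change of -4.25 (SE 0.055, adjusted p = 1.02e-49). No IAA library came near a control. Inhbb, which encodes the subunit of activin B (chr1:119415465-119422248), had 3.79 to 6.50 CPM in controls (median 4.77) and 0.250 to 0.977 after IAA (median 0.597), a log2 change of -2.88 (SE 0.13, adjusted p = 9.66e-26). Fst, the activin-binding follistatin (chr13:114452290-114458951), had 5.61 to 7.17 CPM in controls (median 6.49) and 0.853 to 1.78 after IAA (median 1.37), a log2 change of -2.27 (SE 0.092, adjusted p = 1.16e-27). An activin subunit and an activin antagonist thus both lost most of their transcription, without overlap between the groups.

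Kdr, the receptor VEGFR2 (chr5:75932827-75978458), had 7.66 to 10.3 CPM in controls (median 8.21) and 1.07 to 1.79 after IAA (median 1.51), a log2 change of -2.50 (SE 0.085, adjusted p = 5.31e-31). Enox1, an ecto-NOX disulfide-thiol exchanger with a gene body of 565 kb (chr14:77156763-77721407), had 115 to 139 CPM in controls (median 130) and 19.8 to 26.3 after IAA (median 24.8), a log2 change of -2.43 (SE 0.034, adjusted p = 9.40e-49). Both separated completely, in every library. Robo4, a Roundabout receptor, fell by 2.21 on the log2 scale, Ptgs1, which encodes cyclooxygenase 1, fell by 2.18, and Porcn, the acyltransferase that Wnt proteins need for secretion, fell by 1.86. Sema7a, a membrane-anchored semaphorin, had 29.8 to 35.7 CPM in controls (median 32.1) and 8.25 to 11.8 after IAA (median 10.1), a log2 change of -1.67. Soga3 (-1.67) and the lincRNA genes AC133601.1 (-1.72) and 9930038B18Rik (-1.69) complete the 12 largest decreases that went the same way in all 12 same-numbered pairs. Robo4 and 9930038B18Rik had control medians of only 2.28 and 1.81 CPM, with SEs of 0.17 and 0.18.

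Among the 2-fold increases, Gm26812, a lincRNA gene (chr8:121850194-121860621), had 0.776 to 2.07 CPM in controls (median 1.51) and 5.54 to 7.21 after IAA (median 6.41), a log2 change of 2.14 (SE 0.097, adjusted p = 1.28e-25). Ptpru, a receptor-type tyrosine phosphatase (chr4:131768457-131838288), had 1.64 to 3.58 CPM in controls (median 2.44) and 7.71 to 10.7 after IAA (median 9.05), a log2 change of 1.84 (SE 0.089, adjusted p = 2.38e-24). Dkk1, a secreted antagonist of Wnt signaling (chr19:30545863-30549665), had 1.09 to 2.04 CPM in controls (median 1.44) and 4.09 to 5.71 after IAA (median 4.90), a log2 change of 1.69 (SE 0.10, adjusted p = 1.28e-20). Every IAA library lay above every control for these 3 genes. Pdzrn4, a PDZ and RING finger gene with a body of 374 kb (chr15:92396881-92771036), was the best-covered of them: 19.2 to 23.7 CPM in controls (median 21.1) became 55.2 to 77.4 after IAA (median 63.1), a log2 change of 1.62 (SE 0.047, adjusted p = 2.99e-34). The others were the lincRNA gene 2610300M13Rik (1.71), Prr15 (1.68), Igfbp5, an IGF-binding protein (1.582), and Pde4b, a cAMP phosphodiesterase (1.42), none of which overlapped between groups. Control medians were 0.450 to 0.702 CPM for 2610300M13Rik, Prr15 and Igfbp5.

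**Figure D2:**
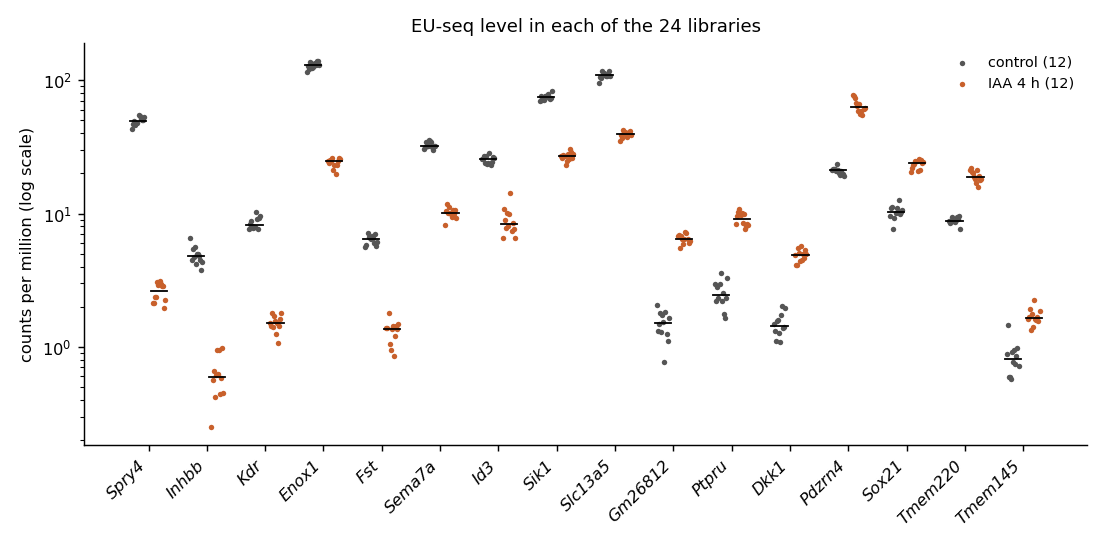
CPM (log scale) in each of the 12 control (grey) and 12 IAA (orange) libraries for 16 of the genes with the largest changes, with a bar at each median. The groups are apart for every gene shown except Tmem145, whose highest control (1.45 CPM) lies above its lowest IAA library (1.33 CPM).

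Among expressed genes, the largest decreases after Spry4 and Sema7a were Id3, Sik1 and Slc13a5. Id3, an inhibitor of basic helix-loop-helix factors and a BMP target, had 23.2 to 28.3 CPM in controls (median 25.6) and 6.50 to 14.2 after IAA (median 8.33), a log2 change of -1.52. Sik1, a salt-inducible kinase, had 70.3 to 83.0 CPM in controls (median 74.8) and 23.1 to 30.3 after IAA (median 27.1), a log2 change of -1.48. Slc13a5, a sodium-coupled citrate transporter, had 95.4 to 118 CPM in controls (median 109) and 34.9 to 42.5 after IAA (median 39.6), a log2 change of -1.47. All libraries of these 3 genes separated by group. The largest increases of expressed genes were Sox21, an HMG-box factor (medians 10.3 and 23.8 CPM, log2 change 1.18), Tmem220 (8.77 and 18.8 CPM, 1.1) and Tmem145 (0.812 and 1.66 CPM, 1.01), and only Tmem145 overlapped between groups.

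Matched by number, 87 of the 92 genes lower at 2-fold fell in all 12 pairs, 72 fell by at least 1.3-fold in every pair and 78 had no overlap of CPM between groups. For the 41 higher genes these numbers were 39, 32 and 32. The pairs share a number and the label CC52 or CC53, and are used only as a description of spread.

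The power of the set lay in small changes. Between 1.1-fold and 1.2-fold, 1162 decreases and 1648 increases passed an adjusted p under 0.05, in addition to those under 1.1-fold. The 6 records under 1.2-fold with the lowest p were well transcribed and the groups did not overlap in any of them. Lncenc1, a lincRNA of naive mESCs, had 796 to 850 CPM in controls (median 835) and 938 to 1028 after IAA (median 997), a log2 change of 0.26 (SE 0.018, adjusted p = 5.20e-18), and its shorter transcript, which lies within it, changed by 0.24. Gsta4, a glutathione transferase, moved from 167 to 181 CPM (median 172) to 200 to 213 CPM (median 206), a log2 change of 0.25. Sall1, a zinc finger factor, went from 151 to 162 CPM (median 157) to 125 to 139 CPM (median 131), a change of -0.26. Ppp1r2, which encodes an inhibitor of protein phosphatase 1 (-0.26), and Nufip2, which encodes an RNA-binding protein (-0.23), behaved alike. In these genes the groups lay apart at a shift of under 1.2-fold. The 6 were picked for the lowest p, so this follows in part from the choice and does not describe small changes at large.

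The counts of lists that follow are on adjusted p and stand against 25.7% lower and 33% higher of all genes tested, with a median of 0.03. These shares varied with level: 16.2% lower and 43.1% higher below 5 TPM, 27.5% and 31.7% at 15 to 50 TPM, 36.5% and 22.0% above 150 TPM. Many lists hold mostly genes above 15 TPM, so the shares over all genes are only a rough measure for them. Where a count is at 1.3-fold or more, the shares over all genes were 4.84% lower and 7.44% higher. Where it is of genes without overlap of groups, they were 7.27% and 5.38%. Of the 29 lists, ERK feedback and target genes had the lowest median change. The MEK inhibitor in the medium was present in both groups. Of 17 tested members of the ERK feedback and target list, 13 were lower and 2 higher on adjusted p, 9 were lower by 1.3-fold or more, and the median log2 change was -0.44, against 0.03 for all genes tested. Etv4, an ETS factor, had 22.0 to 30.6 CPM in controls (median 25.8) and 7.67 to 10.8 after IAA (median 9.88), a log2 change of -1.43. Spred1, an inhibitor of RAS and ERK signaling, had 123 to 136 CPM in controls (median 128) and 72.1 to 82.3 after IAA (median 79.6), a change of -0.70, and Etv1, another ETS factor, changed by -0.92. The groups were apart for all of these. Of 15 immediate early genes, 8 were lower and 2 higher (median -0.15), among them Klf10 (-0.44), Junb (-0.51), Ier5 (-0.61) and Ier2 (-0.30). Junb and Ier2 overlapped between groups.

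Against 25.7% lower and 33% higher of all genes, of 32 tested genes of TGF-beta, activin, Nodal and BMP signaling, 18 were lower and 7 higher, with a median of -0.13. Besides Inhbb, Fst and Id3, Smad7, the inhibitory SMAD, had 498 to 536 CPM in controls (median 521) and 313 to 337 after IAA (median 326), a log2 change of -0.67 (SE 0.017, adjusted p = 2.59e-36). Its ranges lay far apart. Receptor tyrosine kinases split evenly, 16 lower and 16 higher of 38 (median 0.0046). Kdr, the ephrin receptors Epha2 (-0.86) and Epha4 (-0.57) fell, and Pdgfra rose from 3.69 to 5.37 CPM (median 4.39) to 8.15 to 11.4 CPM (median 9.38), a log2 change of 1.11. WNT response genes also went both ways, 6 lower and 9 higher of 18 (median 0.12, which turned to -0.04 when only genes with a mean count above 100 were kept). Lef1 (0.62) and Tcf7l1 (0.47), both TCF/LEF factors, rose with Dkk1, and the cyclin gene Ccnd1 fell (-0.45). NOTCH pathway genes showed 4 lower and 3 higher of 10 (median 0.01), where all genes had 25.7% and 33%, with Rbpj (-0.25), Notch1 (-0.14), Hes1 (-0.23) and Notch3 (0.12) as the lowest p, none of them at 1.3-fold.

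Pluripotency factors were lower as a group but not without exception. Of 18 general and naive factors, 13 were lower and 4 higher, 8 were lower by at least 1.3-fold (4.84% of all genes) and the median was -0.27. Klf5, a Krüppel-like factor, had 364 to 412 CPM in controls (median 402) and 200 to 221 after IAA (median 211), a log2 change of -0.92 (SE 0.020, adjusted p = 3.43e-40). Klf4 had 193 to 229 CPM (median 218) and 111 to 133 CPM (median 118), a change of -0.86, Prdm14 changed by -0.90 and the T-box factor Tbx3 by -0.59. None overlapped. The LIF and STAT3 response list, which also holds Klf4 and Klf5, had 10 lower and 3 higher of 15 (median -0.27), with Lifr, the LIF receptor, at -0.42 and the kinase gene Pim3 at -0.71. Formative and primed genes did not move the other way: 6 were lower and 3 higher of 12 (median -0.16), with Zic2 (-0.76), the de novo DNA methyltransferase Dnmt3b (-0.60) and Lefty2 (-0.63) lower and Lef1 higher.

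Markers of other cell types stood beside these changes. Summed over 10 trophoblast markers, controls had 56.8 to 64.5 CPM and IAA libraries 35.8 to 41.6. Most of that sum was Tfap2c, which mESCs also transcribe and which went from 41.5 to 47.1 CPM to 19.7 to 23.1 CPM (-1.07), while Cdx2 rose (0.51), Eomes fell (-0.48), Krt8 was at 0.22 with an adjusted p of 0.149, and Elf5, Hand1, Krt7, Krt18 and Ascl2 were too low to test. Of 5 tested trophoblast markers 2 were lower and 1 higher (median -0.08). Primitive endoderm markers summed to 394 to 454 CPM and 369 to 436 CPM, with 3 lower and 2 higher of 7 tested (median -0.07): Lama1 (-0.13), Gata6 (-0.48) and Col4a1 (-0.22) were lower, Pdgfra was higher, and Sox17, Sox7 and Foxa2 were too low to test. Neural markers summed to 93.0 to 109 CPM and 91.8 to 100.6 CPM, and of 10 only Vim (-0.14) and Nes (0.21) could be tested (median 0.03). The part of cell mixture in the changes above was not tested.

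Cell cycle genes showed small, one-sided shifts that the 12 libraries could resolve. Of 24 genes of G1/S and DNA replication, 18 were lower and 0 higher by edgeR (0 higher also at an unadjusted p under 0.05, by DESeq2 and by limma-voom). Their median was -0.12, and 9 were lower without overlap of groups, as were 7.27% of all genes. Ccne2, cyclin E2, had 75 to 81.3 CPM in controls (median 78.0) and 55.9 to 62.8 after IAA (median 59.2), a log2 change of -0.39, E2f2 changed by -0.51, and the origin recognition gene Orc1 (-0.29) and the chromatin assembly gene Chaf1b (-0.34) followed. Of 22 genes of G2/M and mitosis, 19 were higher and 0 lower by edgeR (0 lower also at an unadjusted p under 0.05, by DESeq2 and by limma-voom), with a median of 0.12 and no member at 1.3-fold. Top2a, topoisomerase II alpha, had 473 to 507 CPM in controls (median 486) and 529 to 572 after IAA (median 551), a log2 change of 0.17 (SE 0.017, adjusted p = 2.04e-12), and Tpx2 (0.19), Cenpf (0.14) and Cdc25c (0.22) rose without overlap. Over the 12 pairs, the G1/S median lay between -0.16 and -0.08 and the G2/M median between 0.07 and 0.16. Clustered histone genes, transcribed in S phase, gave 28 higher and 0 lower of 59 by edgeR (0 lower also at an unadjusted p under 0.05, by DESeq2 and by limma-voom), but their median of 0.13 was no larger than its SD over pairs of 0.14. Hist2h2bb (0.27), Hist3h2a (0.32), Hist1h1b (0.28) and Hist1h1d (0.20) led by p, and all 4 overlapped between groups.

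Stress and metabolic lists differed from each other. Of 19 integrated stress response genes, which ATF4 and eIF2 phosphorylation control, 17 were higher and 1 lower, with a median of 0.19. By at least 1.3-fold, 6 were higher, as were 7.44% of all genes. Ddit3, the factor CHOP, had 19.3 to 23.1 CPM in controls (median 20.9) and 24.8 to 28.9 after IAA (median 27.3), a log2 change of 0.35, Aldh1l2 (0.55) and Trib3 (0.42) rose without overlap, and Cebpb (0.95) rose with overlap. Heat shock genes showed 3 lower and 3 higher of 12 (median -0.04), with Bag3 (-0.13), Hspd1 (-0.09), Dnajb1 (0.15) and Hspb1 (0.12). For p53 targets 6 were lower and 6 higher of 22 (median 0.01), near the 25.7% and 33% of all genes, with Cdkn1a, the cell cycle inhibitor p21, at -0.44, Plk2 at 0.32, Trp53inp1 at -0.15 and Pmaip1 at -0.53. Of 18 glycolysis genes 11 were lower and 2 higher (median -0.10). Pdk1, the kinase that inhibits pyruvate dehydrogenase, had 52.5 to 56.9 CPM in controls (median 54.6) and 19.2 to 22.6 after IAA (median 20.6), a log2 change of -1.41 (SE 0.029, adjusted p = 3.91e-41). The glucose transporters Slc2a3 (-0.67) and Slc2a1 (-0.66) and hexokinase 2, Hk2 (-0.32), fell too, without overlap. Cholesterol synthesis genes showed 8 lower and 5 higher of 22 (median 0.04) and none at 1.3-fold, with Dhcr7 at 0.29, Insig1 at -0.12, Sc5d at -0.16 and Hsd17b7 at -0.14.

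Of 8 tested members of the aryl hydrocarbon receptor list, which holds a ligand-activated transcription factor and its targets, 2 were lower and 3 higher (median 0.16). Cyp1a1, its best-known target, had 26.3 to 33.7 CPM in controls (median 30.4) and 43.5 to 63.0 after IAA (median 55.9), a log2 change of 0.87 (SE 0.045, adjusted p = 7.03e-23), and Nqo1 rose by 0.37. Tiparp, another target, had 121 to 137 CPM in controls (median 125.7) and 49.1 to 55.2 after IAA (median 52.0), a change of -1.29, and Ahr itself changed by -0.57. Ahrr, the repressor of the receptor, was the other call (0.45) and is named after its value was seen. The groups did not overlap for any of these 5 genes.

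No member of the cohesin list, or of those of cytosolic and mitochondrial ribosomal proteins, the proteasome, and Mediator and RNA polymerase II, changed by 1.3-fold by edgeR, DESeq2 or limma-voom. At that size 4.84% of all genes were lower and 7.44% higher. Of 9212 expressed genes, which make up nearly all of these lists, 287 were lower and 164 higher. The counts on adjusted p below stand against 25.7% lower and 33% higher of all genes, and some are near those shares. Among 16 genes for cohesin subunits, its loaders and release factors and CTCF, 3 were lower and 5 higher by edgeR (4 and 6 at an unadjusted p under 0.05, median -0.01), with Stag1 at 0.22, the release factor Wapl at -0.13, Pds5b at 0.11 and Hdac8, the SMC3 deacetylase, at 0.19. Cytosolic ribosomal protein genes gave 4 lower and 11 higher of 76 (median 0.02), with Rps26 (0.15), Rpl29 (0.17) and Rpl13a (0.08). Mitochondrial ribosomal protein genes gave 10 and 17 of 77 (median -0.0029), with Mrpl39 (-0.20), Mrpl13 (-0.15), Mrpl14 (0.22) and Mrpl4 (0.21). Proteasome genes gave 5 and 8 of 36 (median 0.03), with Psmb3 (-0.14), Psmd11 (0.10), Psmd1 (0.10) and Psmb6 (0.16), and Mediator and polymerase genes gave 11 and 10 of 43 (median -0.01), with Med13l at -0.31, Polr2c at 0.15, Polr2a at 0.08 and Med12l at 0.17.

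**Figure D3:**
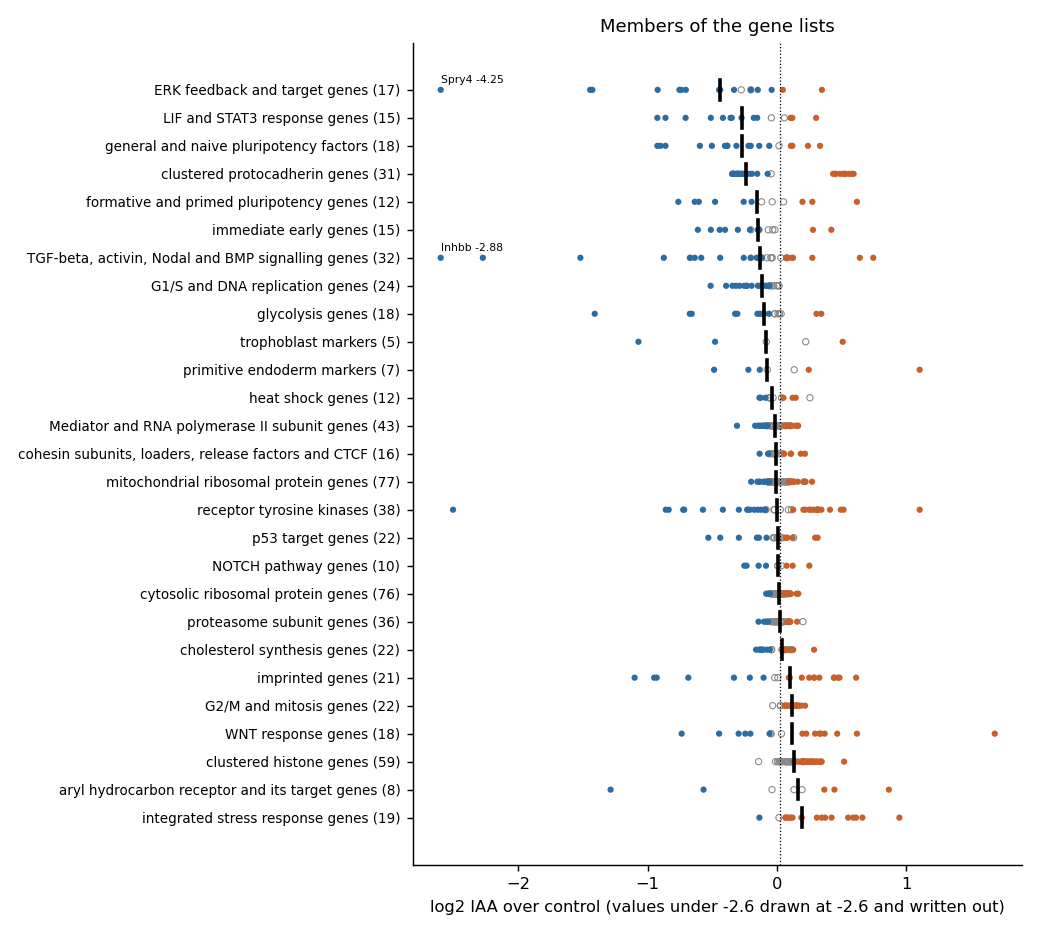
Log2 change of every tested member of the gene lists with 5 or more tested members (number in brackets), filled blue or orange where the adjusted p is under 0.05 and open otherwise, with a bar at each list's median and a dotted line at the median of all genes (0.03). Values below the axis are drawn at its edge. The ERK list has the lowest median (-0.44) and the integrated stress response list the highest (0.19).

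Clustered genes changed by cluster. Clustered protocadherin genes choose 1 of many first exons per cell and share downstream exons within a cluster, so their counted gene bodies overlap. All 10 tested Pcdha genes were higher (0.44 to 0.60) and 20 of 21 tested Pcdhg genes were lower (lowest -0.34, median -0.30), whereas no Pcdhb gene had enough counts. Pcdhgb6, Pcdhga9, Pcdhga10 and Pcdhgb5 each changed by -0.34 without overlap of groups. In all, 17 lower members had no overlap of groups, whereas every Pcdha gene overlapped. Pcdha1, Pcdha2, Pcdha3 and Pcdha4 were at 0.21 TPM and Pcdha8, Pcdha9 and Pcdha11 at 0.12 to 0.13 TPM. Genes below 5 TPM had a median change of 0.15. Because the members of each cluster share most of their counted bases, each cluster amounts to little more than 1 measurement. Of 21 imprinted genes 7 were lower and 12 higher (median 0.10). Peg10 had 18.2 to 21.9 CPM in controls (median 21.1) and 8.25 to 11.1 after IAA (median 9.69), a change of -1.1, and Rtl1 (-0.95), Mirg (-0.93) and Meg3 (-0.68), all of the Dlk1-Dio3 domain, fell together. Only 4 HOX genes could be tested, 3 of them higher (median 0.21): Hoxc12 (0.45), Hoxc13 (0.20) and Hoxc4 (0.23), with Hoxb9 at 0.09 and an adjusted p of 0.234.

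Position in the genome was described from the same calls, with 1 transcript for each of 14883 gene symbols where genes are set in order along chromosomes. Genes with few neighbors changed more often. Where 0 to 3 other tested start sites lay within 250 kb, 7.64% of genes were lower and 10.4% higher by at least 1.3-fold. These shares were 4.47% and 7.58% for 4 to 6 start sites, 3.84% and 6.42% for 7 to 10, and 2.34% and 5.26% for over 10. Genes in sparse regions were also longer and less transcribed, with a median of 9.96 TPM against 36.2 TPM in the densest class. Among expressed genes alone, the share that was lower still went from 5.21% to 1.65% from the sparsest to the densest class, while the share that was higher went from 1.85% to 1.65%. By length, 4.56% of 3796 genes under 10 kb were lower and 6.53% higher, against 7.55% and 10.0% of 1749 genes of 100 to 300 kb and 7.17% and 15% of 474 genes over 300 kb. The median change was 0.12 for genes over 300 kb, with an SD of 0.067 over pairs, and 0.01 to 0.05 in the 4 shorter classes. Genes over 300 kb had a median level of 0.600 TPM. In expressed genes the share that was higher did not rise with length. Of 2965 expressed genes under 10 kb, 3.34% were lower and 3.44% higher, with a median of 0.04. Of 447 expressed genes of 100 to 300 kb, 6.94% were lower and 1.34% higher, with a median of -0.04. Only 21 expressed genes were over 300 kb, with a median of 0.03.

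Over the autosomes and X, the share of genes lower by at least 1.3-fold ran from 2.10% on chromosome 19 to 6.76% on chromosome 1, and the share higher ran from 3.45% on X to 10.5% on chromosome 13. Chromosomes 18 (10.2%) and 5 (10.1%) were the others above 10%. All 7 mitochondrial genes tested were higher on adjusted p, with a median of 0.23 and an SD over pairs of 0.15.

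Neighboring genes tended to move together. Next to a gene that was lower by at least 1.3-fold, 13% of neighbors without overlap were lower, against 4.78% of all genes in the order, and next to a gene that was higher, 14.5% of neighbors were higher, against 7.61%. For lower genes the share fell with distance between start sites, from 24.5% under 20 kb to 13.5% at 20 to 100 kb, 11.7% at 100 to 500 kb and 6.06% beyond 500 kb. For higher genes it did not: the same shares were 21%, 11.2%, 14.2% and 16.3%. Among pairs without overlap, 88 were both lower, 154 both higher and 109 opposite. Where transcripts overlapped, 66.7% of neighbors of lower genes were lower and 44.6% of neighbors of higher genes were higher (1356 pairs). The libraries of this set lack the label Stranded that some other libraries of the series carry. Whether counting over genes used strand is not given in the sources used here, so overlapping genes can share reads and are uncertain.

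Around the genes that were lower by at least 2-fold, the excess of other lower genes ended near 250 kb. Of 128 other genes within 100 kb 10.2% were lower, and of 232 at 100 to 250 kb 9.05%, whereas the share was 3.89% of 334 at 250 to 500 kb and 3.27% of 612 at 500 to 1000 kb. Around genes higher by 2-fold, 16.9% of 71 genes within 100 kb were higher, 9.30% of 86 at 100 to 250 kb, 8.00% of 200 at 250 to 500 kb and 9.15% of 306 beyond.

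**Figure D4:**
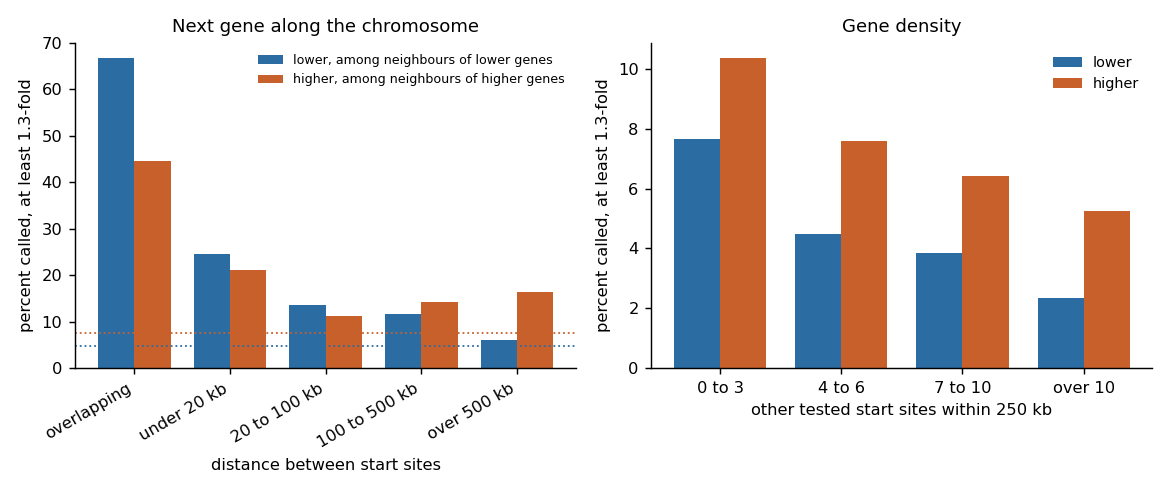
Left, the percent of neighbors called in the same direction (at least 1.3-fold) by distance between start sites, for neighbors of lower (blue) and of higher genes (orange), with dotted lines at the share of all genes (4.78% and 7.61%). Right, the percent of genes called lower and higher by the number of other tested start sites within 250 kb, which declines for both from the sparsest to the densest class.

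Runs of 3 or more consecutive tested genes, all called in one direction at 1.3-fold or more, numbered 18 for decreases (61 genes, 13 runs with at least 3 genes that did not overlap) and 24 for increases (81 genes, 19 such runs). The lower runs spanned 23.0 to 4016 kb (median 209 kb) and the higher ones 17.3 to 3769 kb (median 260 kb). Calls were frequent in this set, and whether there were more runs than that frequency gives was not tested.

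The run at Spry4 went on through AC133601.1, a lincRNA gene that starts beside it on the opposite strand, and AC110730.1 (-0.40). AC133601.1 had 15.3 to 20.5 CPM in controls (median 18.2) and 4.77 to 6.87 after IAA (median 5.48), a change of -1.72, without overlap, whereas AC110730.1 overlapped between groups. In the Dlk1-Dio3 domain the run held Gm34081 (-0.40), Meg3, Rtl1 and Mirg, and none overlapped between groups. Rtl1 had 132 to 163 CPM in controls (median 159) and 74.6 to 87.1 after IAA (median 80.7). The run of Ptprk (-0.44), Soga3, Gm49353 (-1.37) and 9330159F19Rik (-1.15) held genes that overlap in part, as did those of Pnp, Gm49342, Pnp2, Rnase4 and Ang (-0.50 to -0.40), of Senp3, Tnfsf13, Tnfsf12 and Tnfsfm13 (-0.57 to -0.39), of Nptxr, Npcd and Cbx6 (-0.73 to -0.38), of Prnp, Prn and Rassf2 (-0.51 to -0.39), of 3110039I08Rik, Gm49317, Sorl1 and 4930546K05Rik (-0.86 to -0.40) and of Islr, Islr2, Pml and Stoml1 (-0.60 to -0.50).

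The other lower runs held genes apart from each other. Zfp57, which keeps imprints, Mog and Gabbr1, a GABA-B receptor subunit, fell together: Gabbr1 had 146 to 171 CPM in controls (median 160) and 75 to 86.3 after IAA (median 81.6), a change of -0.97, and Zfp57 changed by -0.50 and Mog by -0.49. Kcnj3 (-0.98), a potassium channel, Nr4a2 (-0.62), an orphan nuclear receptor, and Gpd2 (-0.53) ran over 1935 kb, and the adhesion genes Cdh2 (-0.44), Dsc2 (-0.92) and Dsg2 (-0.45) over 4016 kb. Tbx3 fell with its neighbors Gm16064 (-0.45) and Tbx3os2 (-0.64). Gpr83 (-1.65), Panx1 (-0.56) and Vstm5 (-0.63), Btla (-0.69), Cd200 (-1.28) and BC016579 (-0.47), Cobll1 (-0.47), Scn3a (-0.40) and Csrnp3 (-0.48), Kiss1, Etnk2 and Sox13 (-0.76 to -0.49), and B4galnt4, Pkp3 and Sigirr (-0.46 to -0.40) formed the rest.

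Most genes in higher runs were weakly transcribed, and 11 of the 81 were above 15 TPM. The run of Gm49503 (0.48), the centromere gene Cenpm (0.48) and 1500009C09Rik (1.22) was without overlap between groups. Cenpm had 38.8 to 45.8 CPM in controls (median 43.4) and 55.8 to 64.1 after IAA (median 60.0). Rhob (0.81, medians 7.97 and 13.7 CPM), lay between Hs1bp3 (0.39) and Slc7a15 (0.39), and Prdm16 (0.53) at the end of Megf6 (0.56), Arhgef16 (0.63) and B230104I21Rik (1.33). Cebpb shared a run with A530013C23Rik (0.64) and Gm14321 (0.40), and Herpud1, of the unfolded protein response (0.39), with C78859 and Slc12a3 (up to 0.98).

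Of the other higher runs, those of Pde3a, Slco1c1 and Slco1a5 (0.68 to 0.79), Aox1, Aox3 and Aox2 (0.48 to 0.82), Akr1c13, Akr1e1, Gm40658, Gm5444, Gm40660 and Gm35330 (0.40 to 0.83), Gm3045, Slc25a48 and Fbxl21 (0.50 to 0.86), 2210408F21Rik, Gm14532 and Gm13844 (0.49 to 0.91), Olfr539, Olfr45 and Cyp2e1 (0.39 to 1.02), Olfr52, Pramel6 and Olfr1259 (0.41 to 0.83) and Gm33699, Gm39348 and B930092H01Rik (0.63 to 0.69) each held a gene above 0.65. So did those of Ankrd23, Gm42417 and Ankrd39, of Alox5ap, BC028471, Tex26 and Wdr95, and of 1700008O03Rik, Syt3, Josd2 and 5430431A17Rik (0.39 to 0.82). The rest, also within 0.39 to 0.82, were those of Nmbr, C330004P14Rik and Gm47771, Pnpla1, 4930539E08Rik and Pxt1, Katnal1, Gm15409, 1810059H22Rik, Gm42791 and Gm15406, 4930470P17Rik, Gm14264 and Dok5, 4930467D21Rik, Prdm8 and Cfap299, and Gm44511, Clec2g and 2310001H17Rik. The runs of Pcdha1, Pcdha2, Pcdha3 and Pcdha4 and of Pcdha8, Pcdha9 and Pcdha11 hold transcripts that overlap throughout.

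Set beside the initial experiment on the same line, dose and time, most changes of the 12 against 12 libraries had the same sign, and many were larger here. The initial libraries alone gave 782 lower (5.15%) and 529 higher genes (3.49%) of 15177 on adjusted p (edgeR). Of the 92 genes lower here at 2-fold, 66 had counts enough for a test there, 62 of them had the same sign and 36 were called lower. Of the 41 higher genes, 31 were tested there, 27 had the same sign and 17 were called higher. Median log2 changes of those tested were -1.24 here and -0.71 there for lower genes, and 1.18 and 0.63 for higher ones. The difference between both effects, tested with edgeR over all genes, was called for 872 of 16000 (5.45%), 359 more negative and 513 more positive here. Among the 762 genes lower at 1.3-fold it was called for 134, of which 122 changed more here, and among the 1171 higher genes for 154, of which 152 changed more here. Since the genes were chosen for their change here, an excess of larger changes here is in part fixed by that choice.

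Among genes called here at 1.3-fold, some of the widest differences from the initial set went with unlike control levels and others did not. Spry4, normalized jointly, had a median of 49.3 CPM in the 12 controls and 2.63 after IAA, against 3.53 and 3.61 in the initial controls and 1.57 and 2.13 after IAA, so the difference in log2 change was -3.28 (SE 0.35, adjusted p = 1.34e-09 by edgeR). Enox1 had medians of 129 and 24.8 CPM here and 8.33 and 7.89 CPM there, a difference of -2.30. Fst had 6.44 and 1.38 CPM here and 1.24 and 1.33 CPM there, a difference of -2.37. Cyp1a1, at medians of 30.1 and 56.4 CPM here and 2.49 and 34.2 CPM there, was higher after IAA in both and by far less here, a difference of -2.89. For Spry4, Enox1 and Fst the controls of both sets were far apart while the IAA libraries were closer, and for Cyp1a1 the control levels differed most. What made the controls differ was not tested. The most positive differences of genes called here were those of Nudt18 (2.41), Kcnk3 (2.01) and Cyp2j7 (1.76), all with medians under 5 CPM in both sets. Control medians of Nudt18 were 1.32 CPM here and 1.60 CPM there, and those of Kcnk3 were 0.921 and 1.08 CPM, and Cyp2j7 was lower after IAA in both (-0.99 here, -2.75 there).

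CTCF-AID mESCs after 6 h of IAA share the ligand and the cell type, and the difference was called for 3965 of 16588 genes (23.9%), 2071 more negative and 1894 more positive here. Of 246 genes lower here at 1.3-fold and expressed in both, 179 had the same sign after CTCF loss, with medians of -0.51 here and -0.18 there, and the difference was called for 163. Of 144 that were higher, 118 had the same sign, with medians of 0.48 and 0.24. As with the initial set, larger medians here are in part fixed by the choice of genes. Kdr went opposite ways, at -2.50 here and 1.01 after CTCF loss (adjusted p = 1.67e-10 for the difference by edgeR), though 1 of the 2 stranded CTCF-AID IAA libraries, at 2.78 CPM, lay below both of its controls. Cobll1 changed by -0.47 here and went after CTCF loss from 1.55 and 2.80 CPM to 26.3 and 37.5 CPM in the unstranded libraries (3.59 over all 4 and 4). Evx1, at -1.65 here, was at or below 0.0736 CPM in all CTCF-AID controls, so its value there rests on very few reads.

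Among genes called here at 1.3-fold or more, Col27a1, Prss41 and Gm26812 exceeded their change after CTCF loss by the widest margin. Col27a1, a fibrillar collagen gene (chr4:63215435-63334991), had medians of 9.89 CPM in controls and 23.0 after IAA here, against 15.8 and 1.93 CPM in unstranded and 20.6 and 1.52 CPM in stranded CTCF-AID libraries, a difference of 4.53 (adjusted p = 7.39e-22 by edgeR). Prss41, a serine protease gene (chr17:23836785-23844172), had medians of 2.15 and 3.19 CPM here and 1.65 and 0.107 CPM in unstranded CTCF-AID libraries, a difference of 4.43, and Gm26812 had 1.5 and 6.49 CPM here and 1.71 and 0.449 CPM there, a difference of 4.18. The changes of these 3 genes after RAD21 loss and after CTCF loss had opposite signs, which the choice of genes called here favors. Prss41 overlapped between groups here. All 3, and Cobll1, hold a match within their promoter to the CTCF core letters (CC, 3 of any base, AG, 2 of any base, GGC, searched on both strands). Evx1 and Kdr, also among the 6 widest differences of genes called here, hold none. The bases before the start are printed for the 4 with a match, chosen for it. The 250 bases upstream of each RefSeq start (GRCm38.p6) follow, 5′ to 3′ on the gene's strand, with the match in capitals, for Col27a1 at chr4:63215162-63215411 (+ strand), Prss41 at chr17:23844157-23844406 (− strand), Gm26812 at chr8:121849936-121850185 (+ strand) and Cobll1 at chr2:65238792-65239041 (− strand).
Col27a1: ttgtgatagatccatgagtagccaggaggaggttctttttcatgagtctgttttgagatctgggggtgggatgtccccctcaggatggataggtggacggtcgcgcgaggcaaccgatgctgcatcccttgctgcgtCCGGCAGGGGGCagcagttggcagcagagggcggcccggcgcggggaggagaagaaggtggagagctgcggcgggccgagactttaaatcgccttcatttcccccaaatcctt
Prss41: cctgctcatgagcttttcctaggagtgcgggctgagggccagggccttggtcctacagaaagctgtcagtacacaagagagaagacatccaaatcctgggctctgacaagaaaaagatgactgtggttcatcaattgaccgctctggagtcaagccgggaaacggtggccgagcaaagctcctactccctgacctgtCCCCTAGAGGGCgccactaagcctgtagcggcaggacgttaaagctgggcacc
Gm26812: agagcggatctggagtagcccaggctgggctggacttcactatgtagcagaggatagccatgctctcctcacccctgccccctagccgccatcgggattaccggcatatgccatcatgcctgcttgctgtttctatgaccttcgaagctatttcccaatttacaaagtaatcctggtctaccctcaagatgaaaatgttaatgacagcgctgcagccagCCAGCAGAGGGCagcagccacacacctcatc
Cobll1: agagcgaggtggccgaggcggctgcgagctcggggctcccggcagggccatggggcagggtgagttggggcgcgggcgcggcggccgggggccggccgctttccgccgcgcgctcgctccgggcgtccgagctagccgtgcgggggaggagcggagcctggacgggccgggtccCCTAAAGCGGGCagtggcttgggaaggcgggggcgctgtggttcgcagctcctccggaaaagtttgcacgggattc
The first base of the match lay 113, 53, 31 and 76 bases before the start, in that order, and these 4 promoters held no TATAAA. A match is a description of letters and not a binding site. Of 11255 gene symbols with a RefSeq promoter (250 bases before to 50 after the start), 12.9% held the CTCF core, against 8.61% of all 32851 promoters in the table. The share was 9.96% of 502 genes lower at 1.3-fold (exact 95% interval 7.48 to 12.9) and 12.1% of 755 higher (9.82 to 14.6). Among genes that differed from CTCF loss it was 18.6% of 1341 more positive here (16.5 to 20.8) and 14.6% of 1418 more negative here (12.8 to 16.5), against 11.7% of 8496 without a called difference (11 to 12.4). TATAAA on the gene's strand stood in 4.35% of all 11255, 6.37% of lower (4.40 to 8.88) and 7.42% of higher genes (5.65 to 9.52), and in 13.8% of 58 lower and 7.69% of 26 higher genes at 2-fold.

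In RAD21-AID NPCs after 4 h of the same dose, the difference was called for 5945 of 17538 genes (33.9%), 2202 more negative and 3743 more positive here. Of 195 genes lower here at 1.3-fold and expressed in both, 91 had the same sign in NPCs. Their medians were -0.51 here and 0.03 there. Of 91 that were higher 56 had the same sign, with medians of 0.47 and 0.09. Since the genes were chosen for their change here, larger medians here are in part fixed by that choice. Spry4, at 571 and 578 CPM in NPC controls and 521 and 548 after IAA, differed by -4.04 (adjusted p = 1.81e-44 by edgeR). Ptgs1 was lower here and went from 3.14 and 3.81 CPM to 9.03 and 11.4 CPM in NPCs, a difference of -3.62, and Cyp1a1 was higher in both, from 0.187 and 0.212 CPM to 10.1 and 12.7 CPM in NPCs, a difference of -4.81. Among genes called here at 1.3-fold or more, the widest positive differences were those of Tspan8 (4.47), Cyp2e1 (4.17) and the lincRNA gene Gm48913 (3.37). These genes were under 0.5 CPM in every NPC library. Both NPC IAA libraries had 0 counts for Tspan8 and Cyp2e1, so their fitted changes there depend on the prior count.

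**Figure D5:**
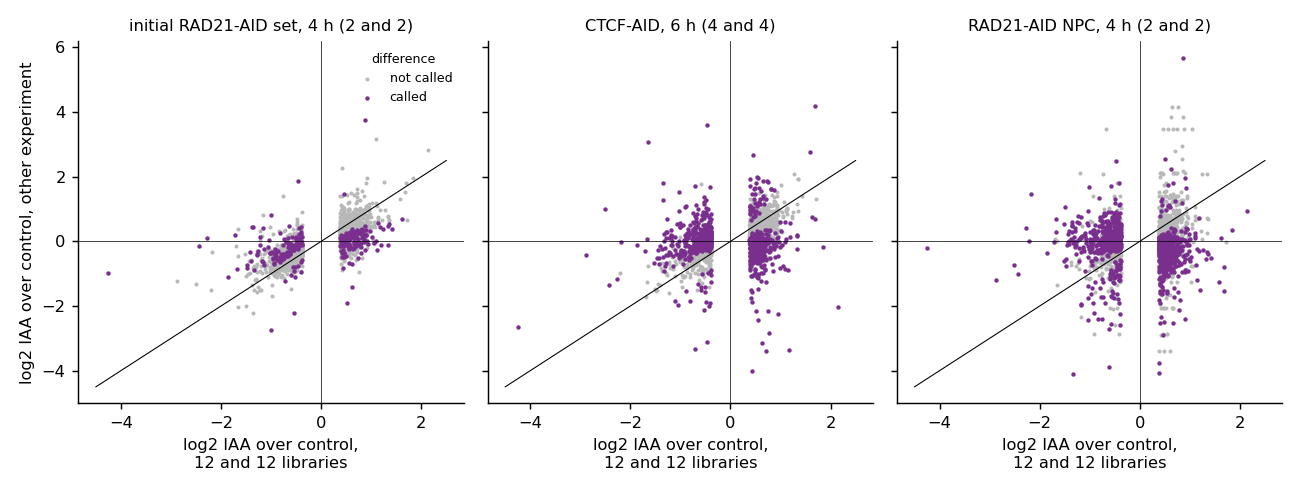
Log2 change in the initial RAD21-AID set, after CTCF loss and in RAD21-AID NPCs (vertical axes) against the change in the 12 and 12 libraries (horizontal axes) for the genes called here at 1.3-fold or more, purple where the difference between both effects has an adjusted p under 0.05, with the line of equal change. In the initial set 680 of the 762 lower genes have the same sign, against 505 after CTCF loss and 427 in NPCs. The genes were chosen for their change here, and those with few reads in the other experiment are included.

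Lists that moved here were compared in the same way, each with its own values. NPCs differ from mESCs in medium as well as in cell type (no MEK inhibitor or LIF is named for NPCs). The ERK list had medians of -0.44 here, -0.22 in the initial set, -0.21 after CTCF loss and -0.012 in NPCs, and 5, 8 and 10 of its 17 genes were more negative and 0, 1 and 4 more positive here by the edgeR test of the difference. Over all genes, 359 of 16000, 2071 of 16588 and 2202 of 17538 were more negative here. The naive pluripotency list had -0.27, -0.12, -0.14 and -0.50, the LIF and STAT3 list -0.27, 0.0025, -0.0026 and -0.10, and the G1/S list -0.12, -0.07, -0.16 and -0.05. A mean count above 20 in any group admitted a gene to these fits, so all 18 naive factors entered the NPC median. Their NPC levels are not given here, and that median may rest on low counts. Against NPCs, 2 naive factors were more negative and 3 more positive here. The G2/M list had 0.12 here, 0.24 in the initial set, -0.08 after CTCF loss and 0.07 in NPCs, and 13 of its 22 genes were more positive here than after CTCF loss, as were 1894 of all 16588. The integrated stress response list had 0.19, 0.12, 0.08 and 0.01. The clustered protocadherins had -0.24, -0.22, -0.56 and -0.59, medians that pool the higher Pcdha and the lower Pcdhg genes.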

How the data were processed

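EU-seq reads were processed by the authors with Cutadapt, bwa meme, SAMtools 1.4 (mapping quality of at least 10) and Bedtools (removal of rRNA and tRNA). HTSeq counted reads over the gene bodies of reference transcripts. Some genes have more than 1 of these: 1389 transcripts share a symbol with another. The deposited values are raw counts per transcript (GENCODE M25), and 0 columns were left unmapped to a sample. Columns limited to the first part of genes were not used. Counting strand is not given in the sources used here. Positions came from GENCODE M21 (27455 of 27665 transcripts matched).

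Genes with a mean count above 20 in either group were fitted with edgeR 4.0.16 (R 4.3.3, TMM, quasi-likelihood F test, no block), and log2 changes were centred on the median of genes above 15 TPM over the counted body. Differences between experiments were interaction terms in joint fits. DESeq2 1.42.0 and limma-voom (limma 3.58.1), other filters and scalings, the label CC52 or CC53 as a covariate, a replicate block and leaving out each library were alternatives. Tables and figures used Python 3.11.15, pandas 2.3.3 and matplotlib 3.10.9. Simulated data with known changes, on 15593 genes, gave 91% of 1.3-fold and 100% of 2-fold changes back for 12 against 12, and called 0.052% of unchanged genes. Only 100 of the genes tested were changed by 1.3-fold and 99 by 2-fold, far fewer than were called in the real libraries. The simulated libraries were drawn independently, without the labels CC52 and CC53. These rates therefore do not give the share of false calls in the real data. For differences from the initial set, 45% of 1.3-fold and 83% of 2-fold differences were recovered.

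Named genes were the 12 decreases and 8 increases of at least 2-fold that were largest and in one direction in all 12 pairs. Added to these were the largest among expressed genes (5 and 3), the 6 with the lowest p under 1.2-fold, up to 4 of each list by p, and members of runs. The rule also took, per experiment, the 3 widest differences each way among genes called here at 1.3-fold or more. A gene that this rule names is not reported here. Members and lists were chosen with earlier results of these data known. Total counts ran from 6966470 to 20879216.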

Additional observations from a re-analysis of the deposited data

Results flagged for a closer look

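The following genes are listed because their change differed between experiments, by an edgeR test of the difference itself at an adjusted p under 0.05. Each value is the log2 change in the 12 and 12 libraries minus that in the other experiment.

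Against the initial RAD21-AID experiment, the change was more negative here for Spry4 (-3.28), Cyp1a1 (-2.89), Fst (-2.37), Enox1 (-2.30), AC133601.1 (-1.93), Sema7a (-0.83), Porcn (-0.75), Slc13a5 (-0.75) and Sik1 (-0.66). It was more positive for Nudt18 (2.41), Kcnk3 (2.01), Cyp2j7 (1.76), Pde4b (1.04) and Pdzrn4 (0.94). The initial experiment had 2 libraries a group.

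Against CTCF loss, the change was more negative here for Evx1 (-4.72), Cobll1 (-4.05) and Kdr (-3.51) and more positive for Col27a1 (4.53), Prss41 (4.43) and Gm26812 (4.18). Against RAD21 loss in NPCs, it was more negative for Cyp1a1 (-4.81), Spry4 (-4.04) and Ptgs1 (-3.62) and more positive for Tspan8 (4.47), Cyp2e1 (4.17) and Gm48913 (3.37).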

How the results depend on the processing

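Over the 34 alternatives of the 12 against 12 fit, none of the 276 named genes called changed direction in an alternative that tested it, and 195 of all 279 named genes kept their side of the threshold where tested. A mean count above 100 left 181 of the 279 to test. Without a filter on low counts, 197 genes were lower at 2-fold, 2016 were higher at 1.3-fold and 445 at 2-fold. With a mean count above 100, these numbers were 51, 471 and 13, the median change of genes of 10 to 30 kb was 0.0050, neighbors without overlap were both lower in 56, both higher in 22 and opposite in 37 pairs, and the median of the WNT list turned to -0.040. Fewer or more weakly counted genes enter these settings by construction. Tested against a change of 1.2-fold, 799 genes were lower and 963 higher on adjusted p, with 82 neighbor pairs both higher and 68 opposite. TATAAA stood in 13.8% of genes lower at 2-fold. The cause of the other shifts was not tested.

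Leaving out 1 library at a time gave 3923 to 4039 lower and 5028 to 5253 higher genes on adjusted p, 750 to 769 and 1147 to 1221 at 1.3-fold, and 88 to 93 and 39 to 45 at 2-fold. For the difference from the initial set it gave 135 to 362 genes more negative and 190 to 519 more positive, with 230 and 218 without initial control replicate 2 and 135 and 190 without initial IAA replicate 2. The ranges were 1738 to 2742 and 1582 to 2526 for CTCF loss, and 1710 to 1807 and 2925 to 3184 for NPCs. Within the libraries labelled CC53, 4017 genes were lower and 5118 higher.

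Same-numbered libraries share a number and the label CC52 or CC53. In their deviations, 3 of 12 pairs correlated above 0.1 (-0.016 to 0.361, highest in the CC52 pair), and the own number was best in 5. With a replicate block, 4103 genes were lower and 5293 higher, and 3192 and 2885 differed from CTCF loss.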
